A study of Homo sapiens with 12 samples.

Results

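The comparison described here is that of inauhzin (INZ) with its vehicle DMSO in HCT116 cells with wild-type p53 (p53+/+). It was chosen by genotype and treatment alone and rests on 6 of the 12 arrays of the study, 3 with INZ and 3 with DMSO. HCT116 is a human colon cancer cell line. The cells received 4 μM INZ and were harvested after 18 hours, total RNA was hybridised to one-colour NimbleGen arrays, and each group has 3 arrays, labelled as biological replicates. The other 6 arrays hold the p53-/- line under the same treatments, 3 arrays each, and are used for the estimate of the spread and to ask where the response differed. Whether each line is 1 clone is not given in the sources used here. Each value is an RMA intensity per feature and array, given below on the log2 scale; a feature is the set of probes for 1 transcript. Since features differ in their probes, levels are compared between arrays and not between genes, and the median feature serves only as a rough mark for weak signal.

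p53 is a transcription factor that is kept low in unstressed cells, mainly by the ubiquitin ligase MDM2, and that accumulates and binds DNA when cells are damaged or stressed. Its targets stop the cell cycle, repair DNA, trigger apoptosis, adjust metabolism and feed back on p53 itself. INZ is a small molecule described as a p53 activator that works through p53 acetylation or ribosomal stress, and the question of the comparison is which RNAs move with it when p53 is present.

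The array held 45033 features, of which 18866 could be named, for 17185 genes. The median intensity of the 12 arrays was between 87.1 and 93.9. A feature is called dim below if its mean log2 intensity over the 12 arrays was under 6.41, the median feature. Within the p53+/+ groups the arrays correlated at 0.909 to 0.968, and DMSO replicate 1 (0.909 and 0.917 with the other DMSO arrays) and INZ replicate 3 (0.929 and 0.933 with the other INZ arrays) stood apart. These arrays also differed most from each other, at 0.828. Counts are therefore given with and without both. The median SD of a feature was 0.421 with DMSO and 0.398 with INZ, against 0.307 and 0.308 in the p53-/- groups, so a spread shared by the 12 arrays is narrower than that of the 6 compared. Levels of cell type markers are given here as means over the 6 p53+/+ arrays. Epithelial keratin 8 (KRT8) was at 14.57. Of 12 colon epithelium markers 7 had such a mean above the median feature, but CDH17, an intestinal cadherin, was dim at 5.14. By the mean over the 12 arrays 6 of the 12 were dim. Markers of other cells were mostly weak. Over the 6 arrays 0 of 4 endothelial, 1 of 7 leukocyte and 2 of 10 fibroblast markers were above the median feature. PTPRC, the pan-leukocyte marker, lay at 5.18, while COL1A1, the brightest fibroblast marker, was at 9.79. By the mean over the 12 arrays 4 endothelial, 6 leukocyte and 7 fibroblast markers were dim. No marker of these lists passed the test in limma, and of the 21 markers of other cells 3 were higher and 1 lower at an unadjusted p under 0.05. Of all 45033 features 6485 were under that p, 3535 of them higher. The summed levels of the leukocyte markers were 39.1 to 40.9 in the DMSO and 39.8 to 42.7 in the INZ arrays, with the largest log2 fold in CD68, a lysosomal protein of macrophages (2.09, adjusted p = 0.0584). Every INZ array was above every DMSO array in 3 of the 7 leukocyte markers, CD68, ITGAM and PTPRC (42.9%, against 7.86% of all genes). That held for 1 of 10 fibroblast markers, ACTA2, and 0 of 4 endothelial ones. In 0 markers of these 3 lists every INZ array was below.

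With INZ, 238 features rose and 150 fell at an adjusted p under 0.05 in limma, which is 0.529% and 0.333% of the features tested. By gene, 119 rose and 61 fell (0.692% and 0.355% of 17185 genes). The genes that rose did so by a median log2 fold of 1.86 (1.17 to 4.82) and those that fell by a median of -1.58 (-1.08 to -2.74). At least 4-fold changes were found in 43 genes that rose and 13 that fell. Of the 119 genes that rose, 36 had a DMSO mean below the median feature. In every called feature the 3 INZ arrays did not overlap with the 3 DMSO arrays, a condition that 7.39% of all features met upwards and 8.51% downwards.

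The number of calls depended on the arrays used for the spread. With only the 6 p53+/+ arrays in the fit, 9 features were called (0.02%), and all 9 were among the 238 that rose. They were both features of TP53I3, those of PDE6G, TNFRSF10C and ATF3, and 4 unnamed ones. Without DMSO replicate 1 and INZ replicate 3, 113 features rose and 53 fell, for 55 and 24 genes. Of the 119 genes that rose, 22 kept their call whichever single array was left out, as did 9 of the 61 that fell. These 31 genes are marked below as kept without each array. The arrays that stood apart set part of the differences: DMSO replicate 1 was the lowest DMSO array for 65 of the 119 genes that rose, and the highest for 45 of the 61 that fell.

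**Figure D1:**
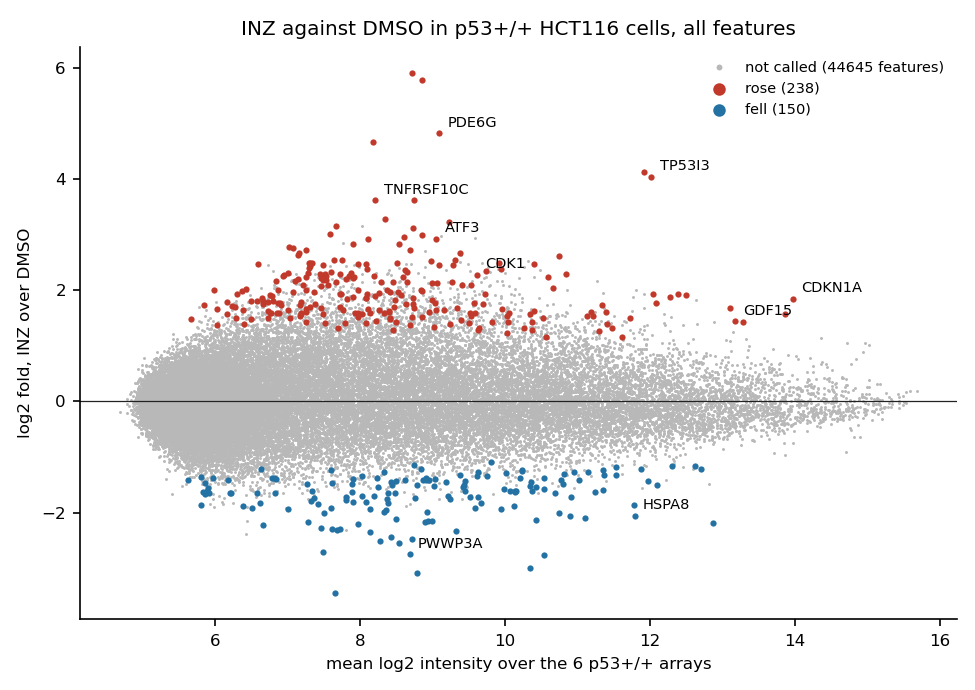
Log2 fold (INZ over DMSO, vertical) against the mean log2 intensity of the 6 p53+/+ arrays (horizontal) for 45033 features, with the 238 that rose in red, the 150 that fell in blue and the rest in grey. TP53I3 combines a large fold with a bright signal, while PDE6G and TNFRSF10C rose from DMSO values near the median feature.

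Genes that p53 is known to switch on were among those that rose, although most of the genes that rose are in none of their lists. Of 97 measured genes in 5 lists of p53 targets, 23 rose and 0 fell (23.7%, against 0.692% of all genes), and 74 did not pass. The lists were chosen with earlier results of these data known. In 49 of the 97 every INZ array was above every DMSO array (50.5%, against 7.86% of all genes), and in 2 every INZ array was below (8.75% of all genes). At an unadjusted p under 0.05, 53 were higher and 2 lower. Of all 45033 features 6485 were under that p, 3535 of them higher. Their median log2 fold was 1.05, against -0.01 over all genes. Without the 2 arrays that stood apart, 12 of the 97 rose and the median was 0.79. Leaving out single arrays gave between 8 rises (without INZ replicate 1) and 33 (without DMSO replicate 3), and with only the 6 arrays in the fit 3 rose. In the p53-/- arrays 0 of the 97 rose with INZ and 3 fell, with a median of 0.04.

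MDM2, the ubiquitin ligase that is both a target and the main inhibitor of p53, was dim (5.14 to 5.85 with DMSO and 4.90 to 6.60 with INZ, overlapping, log2 fold 0.13, 95% interval -0.75 to 1.01). SIRT1, a deacetylase of p53, overlapped between the groups (6.13 to 6.54 and 6.24 to 7.25, log2 fold 0.21, 95% interval -0.44 to 0.87). Neither passed the test, and the sign of both turned negative without INZ replicate 3.

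Among targets that arrest the cell cycle, 8 of 18 rose and 0 fell, with a median log2 fold of 1.72. CDKN1A encodes p21, the inhibitor of cyclin-dependent kinases. Its brighter feature was at 12.88, 13.38 and 12.91 in the DMSO arrays and 14.95, 14.64 and 15.12 in the INZ arrays, so all INZ arrays were higher by more than the spread of either group. The fold was 3.60 (95% interval 2.34 to 5.54, adjusted p = 0.0113), and the second feature rose too (log2 fold 1.57, adjusted p = 0.0127). BTG2, an antiproliferative co-regulator, showed the largest rise of the list, from 6.09, 8.23 and 8.53 to 10.95, 10.49 and 11.09 (log2 fold 3.23, adjusted p = 0.0113). Its low value in DMSO replicate 1 adds to that size, which was 2.46 without this array. PPM1D, the phosphatase WIP1 that turns the p53 response off, rose from 8.67, 9.77 and 10.01 to 11.69, 11.38 and 12.11 (log2 fold 2.24, adjusted p = 0.00863). GADD45A, a stress sensor of the DNA damage response, rose by 1.59 (adjusted p = 0.0161) from a narrow range of 9.07 to 9.40 to one of 10.75 to 10.93. PPM1D was kept without each array, but its call ended in the fit of 6 arrays (adjusted p = 0.227). The calls of CDKN1A (adjusted p = 0.0512) and BTG2 (0.0512) ended without INZ replicate 1 and in the fit of 6 arrays (0.184 and 0.227), and that of CDKN1A also without the 2 arrays that stood apart (0.0683). That of GADD45A ended without DMSO replicate 1 (0.0584), INZ replicate 1 (0.0686) and INZ replicate 2 (0.0514). Polo-like kinases 2 and 3 also rose, PLK2 by 1.92 (adjusted p = 0.021) and PLK3 by 2.96 (adjusted p = 0.0407). PLK3 was at 5.56 in DMSO replicate 1 and 11.47 in INZ replicate 3, and its call ended without any of 10 of the 12 arrays, with a log2 fold of 2.17 without the former. The call of PLK2 ended without DMSO replicate 1 (0.071), INZ replicate 1 (0.0824) or INZ replicate 3 (0.079). CCNG1, a cyclin that p53 induces, ranged from 5.99 to 8.80 and from 8.65 to 9.42 and did not pass (log2 fold 1.90, adjusted p = 0.134), although it did without DMSO replicate 3 (0.00786).

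Of 23 death receptor and apoptosis targets 5 rose and 0 fell, with a median of 1.10. TP53I3 (PIG3), a quinone oxidoreductase tied to p53-induced cell death, was at 10.08, 10.13 and 9.79 with DMSO and 14.20, 13.90 and 14.03 with INZ. The gap between the highest DMSO and the lowest INZ array, 3.76, was many times the spread in either group. That is a 16.5-fold rise (95% interval 10.6 to 25.6, adjusted p = 1.39e-05), and its second feature gave a log2 fold of 4.13. TNFRSF10C, a TRAIL receptor without a death domain, which acts as a decoy, was near the median feature with DMSO at 6.37, 6.38 and 6.48 and reached 9.84, 10.10 and 10.12 with INZ (log2 fold 3.61, 95% interval 2.90 to 4.32, adjusted p = 0.000171). Both genes were kept without each array and in the fit of 6 arrays. FAS, the receptor of the FAS ligand, rose from 5.02, 6.67 and 6.72 to 8.12, 8.79 and 8.21 (log2 fold 2.24, adjusted p = 0.02). PMAIP1, the BH3-only protein NOXA, rose by 1.38 (adjusted p = 0.0366), and FDXR, the mitochondrial ferredoxin reductase, by 1.91 (adjusted p = 0.0466). The FAS call ended without INZ replicate 1 (adjusted p = 0.0563), 2 (0.0691) or 3 (0.0502). Those of PMAIP1 and FDXR ended without any of 10 and 11 of the 12 arrays, with adjusted p values of up to 0.126 and 0.155. BAX, the pore-forming protein of the mitochondrial outer membrane, was read by 3 features with log2 folds of 2.43, 1.55 and 1.31, none of which passed. For the brightest BAX feature the arrays were at 10.36, 9.89 and 9.79 with DMSO and 10.97, 12.10 and 11.61 with INZ, so they did not overlap, but the adjusted p was 0.196.

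Of 12 targets in DNA repair and nucleotide supply 2 rose, with a median of 0.71. DDB2, which recognises UV damage in nucleotide excision repair, was among the tightest: 10.48, 10.54 and 10.39 with DMSO, 12.11, 12.26 and 12.25 with INZ. It rose 3.33-fold (95% interval 2.27 to 4.88, adjusted p = 0.00792) and was kept without each array, but not in the fit of 6 arrays (0.162). PCNA, the sliding clamp of DNA polymerases, rose on both of its features (log2 folds 1.67 and 1.94, adjusted p = 0.0457 and 0.0112). For the brighter one, which stands for the gene, the call ended without any of 11 of the 12 arrays. XPC, the damage sensor of the same repair pathway, had a log2 fold of 1.39 and RRM2B, a p53-induced ribonucleotide reductase subunit, of 1.15, and neither passed (adjusted p = 0.131 and 0.176). XPC passed when DMSO replicate 3 was left out (log2 fold 1.69, adjusted p = 0.048).

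Of 23 targets in metabolism, redox control and autophagy 3 rose and 0 fell, with a median of 0.59. In 11 of the 23 every INZ array was above every DMSO array (47.8%, against 7.86% of all genes). Besides FDXR the genes that rose were PRKAB1, a regulatory subunit of the energy sensor AMPK (log2 fold 2.77, adjusted p = 0.0413), and SESN1, a sestrin that restrains mTORC1 (1.89, adjusted p = 0.0472). PRKAB1 spread from 7.02 to 9.86 over the INZ arrays. The calls of PRKAB1 and SESN1 ended without any of 10 of the 12 arrays, with adjusted p of up to 0.141 and 0.163. SESN2 (log2 fold 1.99, adjusted p = 0.0503) and DRAM1, a lysosomal regulator of autophagy (1.38, adjusted p = 0.0569), lay just outside the threshold. DRAM1 was at 9.68 to 10.11 with DMSO and 10.91 to 11.43 with INZ, without overlap. TIGAR, a fructose bisphosphatase that lowers glycolysis, had 5.90, 8.41 and 8.12 with DMSO and 9.71, 9.94 and 9.28 with INZ (log2 fold 2.17, adjusted p = 0.0769, and 1.38 without DMSO replicate 1). Both SESN2 (without DMSO replicate 2, 0.0281) and TIGAR (without DMSO replicate 3, 0.0383) passed when 1 array was left out, and so did DRAM1 without 1 p53-/- array (0.0394).

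Among targets that are secreted or signal, 6 of 22 rose and 0 fell, with a median of 1.15. ATF3, a stress-induced transcription factor, went from 7.30, 7.55 and 7.94 to 10.43, 10.41 and 10.72, a 7.60-fold rise (95% interval 5.17 to 11.2, adjusted p = 0.000136). INPP5D, the phosphatase SHIP1, was at 5.10 to 5.83 with DMSO, below the median feature, and at 7.74 to 8.0 with INZ (log2 fold 2.48, adjusted p = 0.00216). PGF, a growth factor of the VEGF family, rose by 2.45 (adjusted p = 0.0084). These 3 genes were kept without each array, and ATF3 also in the fit of 6 arrays. GDF15, a secreted stress cytokine of the TGF-beta superfamily, was bright in all arrays, at 12.56, 12.71 and 12.09 with DMSO and 14.19, 13.85 and 13.65 with INZ (log2 fold 1.44, adjusted p = 0.0262). Its call ended without DMSO replicate 1 (0.0608) or 2 (0.0511) and without INZ replicate 1 (0.106) or 2 (0.0668). TGFA, a ligand of the EGF receptor, rose by 1.93 and SULF2, an extracellular sulfatase, by 1.91 (adjusted p = 0.0355 for each). Each lost its call without 8 of the 12 single arrays, with adjusted p of up to 0.125 and 0.118. A second SULF2 feature, with a lower mean, rose by 2.92 (adjusted p = 0.0003).

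**Figure D2:**
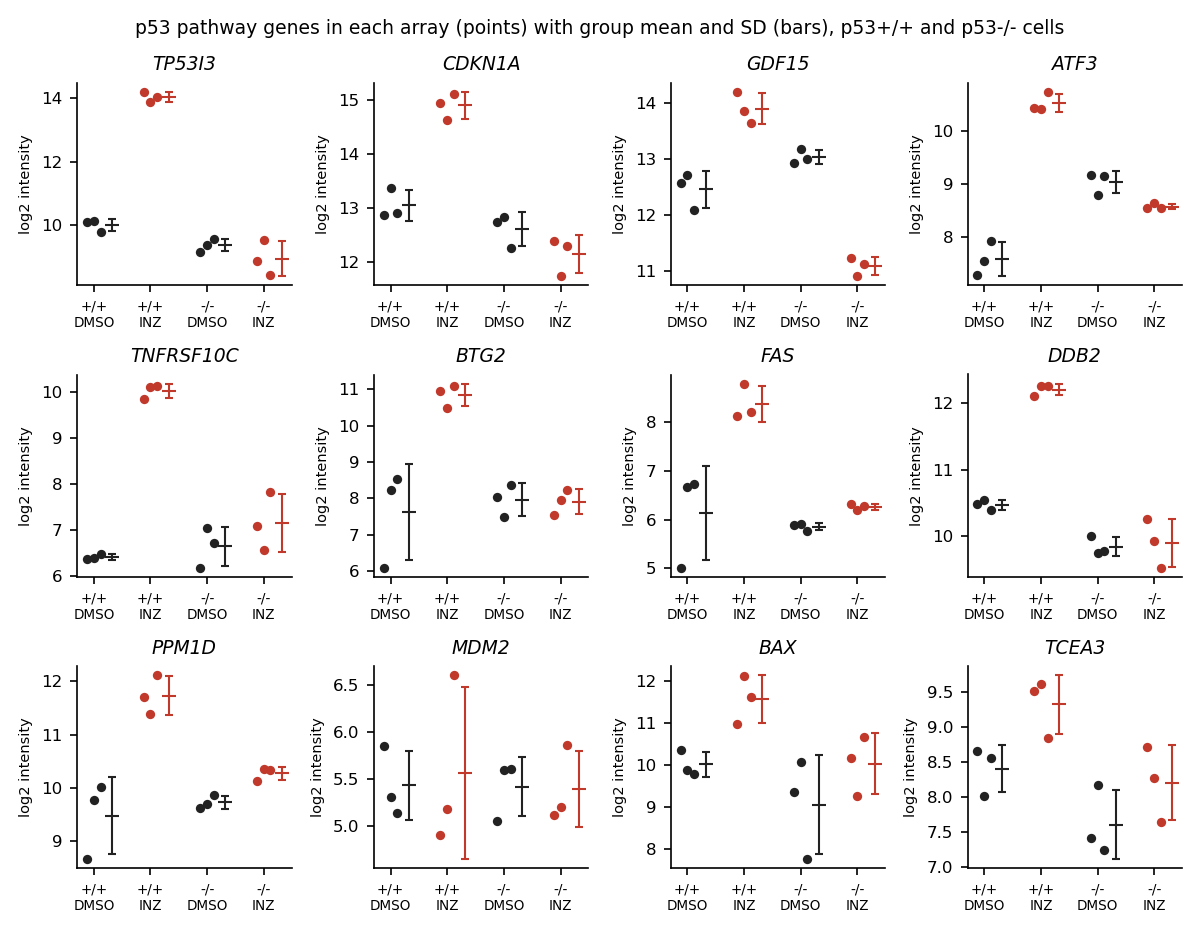
Log2 intensity of 12 genes in each of the 12 arrays (points) with the mean and SD of each group of 3 (bars), DMSO in black and INZ in red, p53+/+ on the left and p53-/- on the right of each panel; the vertical axes differ. TP53I3, TNFRSF10C, ATF3 and DDB2 separate INZ from DMSO in the p53+/+ arrays with little spread, while those of MDM2 overlap.

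The p53 protein binds DNA as a tetramer, each pair of subunits contacting a half-site. The sequences before the starts of the genes were searched for the p53 half-site consensus, which reads the same on both strands, to show what lies near the start of the genes that rose. RefSeq sequences (GRCh38.p14) matched 89 of the 119 genes that rose, 48 of the 61 that fell and 13780 of all 17185 genes, some with several starts whose windows can overlap. A match was present in the 250 bases before the start in 11 of 157 windows of genes that rose (7.01%), 1 of 64 windows of genes that fell (1.56%) and 1042 of 19671 windows of all genes (5.30%). The share among genes that rose was thus close to that of all genes. Windows of the 5 p53 target lists held a match in 11 of 117 cases (9.40%). A match is a description of letters and not a binding site, and p53 can bind outside this window. The 5 genes of these lists that rose and have a match are shown 5′ to 3′ on the strand of the gene, since they are where the expression result and the sequence coincide, with the half-site match in capitals.
FAS, chr10:88991299-88991328, plus strand, match beginning 122 bases before the start: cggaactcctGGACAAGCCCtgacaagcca
SESN1, chr6:109009018-109009047, minus strand, 49 bases before the start: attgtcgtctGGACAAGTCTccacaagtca
PLK2, chr5:58460199-58460228, minus strand, 132 bases before the start: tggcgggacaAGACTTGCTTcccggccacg
PCNA, chr20:5120165-5120194, minus strand, 226 bases before the start: acatatgcccGGACTTGTTCtgcggccggg
FDXR, chr17:74872995-74873015, minus strand, 11 bases before the start: gggcaggagcGGGCTTGCCCt
Of these, FAS had a log2 fold of 2.24, PLK2 of 1.92, FDXR of 1.91, SESN1 of 1.89 and PCNA of 1.67.

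The gene with the largest rise was not in a p53 list. PDE6G, the inhibitory subunit of the phosphodiesterase of retinal rods, was at 6.64, 6.51 and 6.91 with DMSO and 11.47, 11.92 and 11.12 with INZ, a 28.2-fold rise (95% interval 17.9 to 44.4, adjusted p = 3.99e-06). It rose as far without p53: in the p53-/- arrays it was 5.87, 6.04 and 6.57 with DMSO and 11.71, 11.23 and 11.90 with INZ, and the log2 effect in p53+/+ minus that in p53-/- cells was -0.64 (95% interval -1.56 to 0.29). Of the 20 largest rises, GRIN2C, a subunit of NMDA-type glutamate receptors, came next after TP53I3, from 6.41, 7.59 and 6.84 to 10.99, 11.07 and 9.62 (12.2-fold, 95% interval 6.42 to 23.3, adjusted p = 0.00216). NECTIN4, an adhesion protein of the nectin family, was spread over 5.35 to 7.94 with DMSO and reached 9.56 to 10.60 (log2 fold 3.27, adjusted p = 0.0119). SLC16A10, a transporter of aromatic amino acids, rose from 5.00, 6.03 and 7.23 to 8.99, 8.83 and 9.44 (log2 fold 3.0, adjusted p = 0.00783).

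Among the other large rises CA2, a carbonic anhydrase, reached nearly the same level in the 3 INZ arrays (12.04, 12.04 and 12.08) from 8.76, 9.45 and 10.15 (log2 fold 2.61, adjusted p = 0.00335). CYP1A1, a monooxygenase induced through the aryl hydrocarbon receptor, rose by 2.49 (adjusted p = 0.009) from 5.71 to 6.46 with DMSO to 8.21 to 9.31 with INZ. GEM, a small GTP-binding protein, rose by 2.47 (adjusted p = 0.00783). RINL, a protein of the RIN family, rose by 2.73 (adjusted p = 0.00216), ASTN2, an astrotactin, by 2.72 (adjusted p = 0.00216) and SORCS2, a sortilin-family receptor, by 2.64 (adjusted p = 0.00327). LAMA3, a laminin chain of epithelial basement membranes, rose by 2.49 (adjusted p = 0.013), and P2RX4, an ATP-gated ion channel, by 2.46 (adjusted p = 0.0392). Of these 20 rises, 14 were kept without each array. The exceptions were NECTIN4 (lost without INZ replicate 3, adjusted p = 0.0502), BTG2, PLK3 and PRKAB1 (above), LAMA3 (lost without INZ replicate 1, 0.0584) and P2RX4 (lost without any of 11 of the 12 arrays, adjusted p of up to 0.146). In 62 of the 119 genes that rose, INZ replicate 3 was the highest INZ array.

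Of the 61 genes that fell, 3 are in one of the lists. PWWP3A, a chromatin-associated PWWP domain protein, was at 10.90, 9.67 and 9.60 with DMSO and 7.45, 7.39 and 7.12 with INZ, 6.67-fold lower (95% interval 4.03 to 11, adjusted p = 0.00278). HSPA8, the constitutive HSC70 chaperone, fell from 12.88, 12.83 and 12.74 to 10.90, 10.85 and 10.54, 4.15-fold lower (95% interval 2.62 to 6.57, adjusted p = 0.00841). MAD1L1, a protein of the spindle assembly checkpoint, fell from 11.94, 12.14 and 11.72 to 9.62, 9.93 and 10.08 (log2 fold -2.06, adjusted p = 0.00365). In these 3 genes the groups were separated by more than the range within either. HMGB3, a chromatin protein of the high mobility group, fell from 11.36 to 11.67 with DMSO to 9.10 to 9.89 with INZ (log2 fold -2.13, adjusted p = 0.00746). TBX19, a T-box transcription factor, had a log2 fold of -2.44 (adjusted p = 0.0047), IMMP2L, a subunit of the mitochondrial inner membrane peptidase, of -2.34 (adjusted p = 0.00418), and ARFRP1, a GTPase of the Golgi, of -2.30 (adjusted p = 0.00327). INPP5A, an inositol phosphatase, had one of -2.27 (adjusted p = 0.00746) and SLC38A10, a transporter of the amino acid family SLC38, of -2.16 (adjusted p = 0.00216).

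Those 9 of the 20 largest falls were kept without each array. The other 11 were LRRC26, PYCR3, CTBS, RAB40C, ARSD, MCRIP2, C1orf53, GLDN, CAB39L, TTC12 and FBXL16, with log2 folds between -2.55 (LRRC26) and -1.75 (FBXL16). LRRC26 is an auxiliary subunit of potassium channels, PYCR3 an enzyme of proline synthesis, CTBS the lysosomal chitobiase and RAB40C a small GTPase. Each of these 11 lost its call without INZ replicate 1, with adjusted p of 0.0575 for LRRC26, 0.132 for PYCR3, 0.0994 for CTBS, 0.0512 for RAB40C and ARSD, 0.0597 for MCRIP2, 0.106 for C1orf53, 0.0563 for GLDN, 0.0922 for CAB39L, 0.0584 for TTC12 and 0.117 for FBXL16. All but ARSD lost it without at least 1 more array, and C1orf53 without 11 of the 12. Several falling genes had their highest DMSO value in replicate 1: LRRC26 was at 10.64 there against 9.34 and 9.46, and RAB40C at 10.38 against 9.29 and 9.0.

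**Figure D3:**
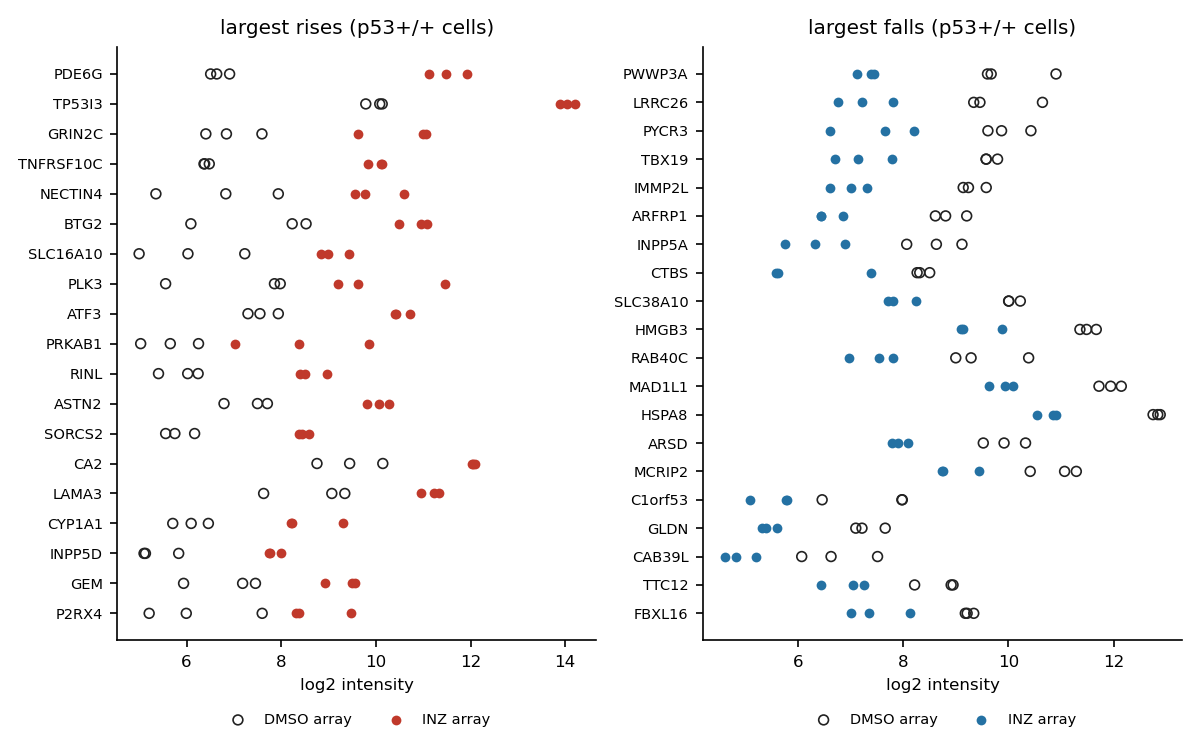
Log2 intensity (horizontal) of 19 of the 20 genes with the largest rises (left) and the 20 with the largest falls (right) in each of the 6 p53+/+ arrays, DMSO as open and INZ as filled circles. The groups do not overlap in any gene shown, and the DMSO values of NECTIN4, BTG2, SLC16A10, PLK3 and P2RX4 spread widely.

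Cell cycle genes were not lowered as a group, and more of them leaned upwards than downwards. Of 32 genes of mitosis and G2/M, 1 rose and 1 fell (MAD1L1), with a median log2 fold of 0.66. Over all genes 0.692% rose and 0.355% fell. In 16 of the 32 every INZ array was above every DMSO array (50%, against 7.86% of all genes). That share was near the 50.5% of the p53 targets. At an unadjusted p under 0.05 in limma, 15 of the 32 were higher and 1 lower. Over all 45033 features 6485 were under that p, 3535 of them higher. The member of the mitosis list that rose was CDK1, the kinase that drives entry into mitosis. It went from 7.61, 8.86 and 8.95 to 10.99, 10.63 and 10.64 (log2 fold 2.28, adjusted p = 0.0161). Its second feature rose by 1.93 (adjusted p = 0.0171). Without INZ replicate 1 the call of CDK1 ended (0.0701). NUSAP1 (1.6), TOP2A (1.59) and KIF11 (1.55), which organise chromosomes and the spindle, had positive log2 folds that did not pass (adjusted p = 0.0665, 0.0984 and 0.11). NUSAP1 and KIF11 passed without DMSO replicate 3 (0.0396 and 0.00965). Of 35 genes of DNA replication and G1/S, 1 rose (PCNA), and the median was 0.82. In 12 of the 35 every INZ array was above every DMSO array (34.3%), and 17 were higher and 1 lower at an unadjusted p under 0.05. FEN1, the flap endonuclease, had a log2 fold of 1.28 and POLA2, a subunit of DNA polymerase alpha, of 0.99, neither past the test. FEN1 passed without DMSO replicate 3 (0.0396). Without the 2 arrays that stood apart these medians were 0.39 and 0.31, and neither CDK1 nor PCNA passed. In the p53-/- arrays the medians with INZ were also positive, at 0.34 for mitosis and G2/M and 0.45 for replication and G1/S. That of the p53 targets was 0.04 there. Among 28 genes of damage sensing and double-strand break repair, CLSPN, an adaptor of the checkpoint kinase CHK1, rose by 1.59 (adjusted p = 0.0386), a call that ended without any of 11 of the 12 arrays. XRCC3, a protein of homologous recombination, had a log2 fold of -1.47 (adjusted p = 0.0732), EXO1, an exonuclease of resection, of 1.06 and FANCD2, the Fanconi anaemia protein, of 0.80.

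No ribosome or nucleolar gene of the lists passed the test, and their medians were slightly negative. Of 29 genes of ribosome biogenesis and RNA polymerase I, 0 rose and 0 fell in limma (median -0.08), and of 32 cytosolic ribosomal protein genes 0 rose and 0 fell (median -0.17), against -0.01 over all genes. Every INZ array was above the DMSO arrays in 1 gene of the first list and 0 of the second, and below in 6 genes of each, where 7.86% of all genes were above and 8.75% below. Of the 32 ribosomal protein genes 6 had a positive log2 fold. At an unadjusted p under 0.05, 2 genes were higher and 3 lower in the first list, and 0 and 1 in the second. Over all 45033 features 6485 were under that p, 3535 of them higher. The 4 smallest p values of the first list included TAF1A, a subunit of the RNA polymerase I factor SL1 (log2 fold -1.57, adjusted p = 0.0806), and RRP12, a ribosome export factor (-0.70, adjusted p = 0.204). TAF1A passed without DMSO replicate 3 (0.0303) or INZ replicate 3 (0.045), while a second, dimmer feature of it had a log2 fold of 0.06.

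Transcription elongation factors of RNA polymerase II, the group that holds the TFIIS genes, gave 1 rise among 29 (3.45%, against 0.692% of all genes), with a median of 0.23. It was ELL2, a subunit of the super elongation complex (log2 fold 1.69, adjusted p = 0.0471), with 6.10, 6.16 and 7.61 in the DMSO arrays and 8.35, 8.30 and 8.28 in the INZ arrays, and the call ended without any of 11 of the 12 arrays. TCEA3, which encodes TFIIS.h, was at 8.65, 8.02 and 8.56 with DMSO and 9.52, 9.61 and 8.85 with INZ. Its 3 INZ arrays lay above the DMSO arrays, but the log2 fold of 0.92 did not pass (adjusted p = 0.267). The other family members had negative folds that did not pass, at -0.32 for TCEA1 and -0.94 for TCEA2 (adjusted p = 0.703 and 0.363), and the second TCEA2 feature one of 0.56. CDK9, the kinase of P-TEFb, spread from 7.69 to 10.52 with DMSO and had a log2 fold of 1.53 (adjusted p = 0.297). Without DMSO replicate 1 it was 0.66, without INZ replicate 3 it was 0.90, and without both it was 0.02.

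Stress pathways other than p53 gave isolated calls, where 0.692% of all genes rose and 0.355% fell. In the list of the integrated stress and unfolded protein responses 1 of 25 rose, ATF3, with a median of 0.19. ASNS, asparagine synthetase (-1.22, adjusted p = 0.111), and SLC7A11, the cystine transporter (-1.56, adjusted p = 0.119), both targets of the stress factor ATF4, had negative log2 folds that did not pass. SLC7A11 passed without DMSO replicate 1 (log2 fold -2.07, adjusted p = 0.0334). DDIT4, an inhibitor of mTORC1, had one of 1.08 (adjusted p = 0.25). Of 21 heat shock chaperones 1 fell, HSPA8, with a median of 0.22, and the second HSPA8 feature had a log2 fold of -1.03 (adjusted p = 0.339). In limma 0 of 27 NRF2 and antioxidant genes changed (median 0.07), and of 15 genes of the aryl hydrocarbon receptor list CYP1A1 alone rose (median 0.07). The NF-kB list (24 genes, median -0.06), glycolysis and hypoxia (26, median 0.29), the Wnt pathway and MYC (20, median -0.01), sirtuins and histone deacetylases (11, median 0.39) and the housekeeping genes (20, median 0.15) gave 0 rises and 0 falls each in limma. At an unadjusted p under 0.05 the genes higher and lower were 3 and 2 for NRF2, 1 and 2 for NF-kB, 5 and 0 for glycolysis and hypoxia, 2 and 1 for Wnt and MYC, 1 and 1 for sirtuins and histone deacetylases, and 3 and 2 for housekeeping. Over all 45033 features 6485 were under that p, 3535 of them higher. The feedback regulators of p53 gave 1 rise among 18 (PPM1D, median 0.12). Of these, TP53BP2, a binding partner that steers p53 to apoptosis genes, had a log2 fold of 1.30 (adjusted p = 0.131), and MDM4, an MDM2 relative, of -0.94 (adjusted p = 0.266).

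The remaining lists gave few calls by number, where 0.692% of all genes rose and 0.355% fell. Of 31 genes of the interferon response and antigen presentation 3 rose (9.68%), with a median of 0.22. NLRP1, an inflammasome sensor, rose on each of its 3 features (log2 folds 1.97, 2.84 and 2.36) and was kept without each array. In the fit of 6 arrays its call ended (adjusted p = 0.138). TAP1, the peptide transporter of antigen presentation, was at 10.73 to 11.18 with DMSO and 12.45 to 12.50 with INZ (log2 fold 1.5, adjusted p = 0.0123), and its call ended without INZ replicate 1 (0.0554), without the 2 arrays that stood apart (0.0558) and in the fit of 6 arrays (0.236). APOBEC3C, a cytidine deaminase, rose by 1.53 (adjusted p = 0.0319), a call that ended without 7 of the 12 arrays, and its relative APOBEC3F had a log2 fold of 1.33 that did not pass (adjusted p = 0.0626). These close paralogs can share probes. In cholesterol synthesis 1 of 22 genes fell, the transcription factor SREBF1 (log2 fold -1.26, adjusted p = 0.0377), a call that ended without any of 11 of the 12 arrays. LSS, lanosterol synthase, had one of -0.96 (adjusted p = 0.163). In cell adhesion and junctions 2 of 30 rose (6.67%), NECTIN4 and LAMA3, with a median of 0.44. OCLN, a tight junction protein that was dim, had a log2 fold of 1.13 (adjusted p = 0.0774). Of 24 immediate early and AP-1 genes 1 rose, ATF3 (median 0.36). DUSP5 (2.32) and DUSP1 (1.12), phosphatases of MAP kinases, and SPRY4 (-1.12), an inhibitor of receptor signalling, did not pass (adjusted p = 0.0692, 0.0706 and 0.0695), though both phosphatases did without DMSO replicate 3 (0.0303 and 0.0248).

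**Figure D4:**
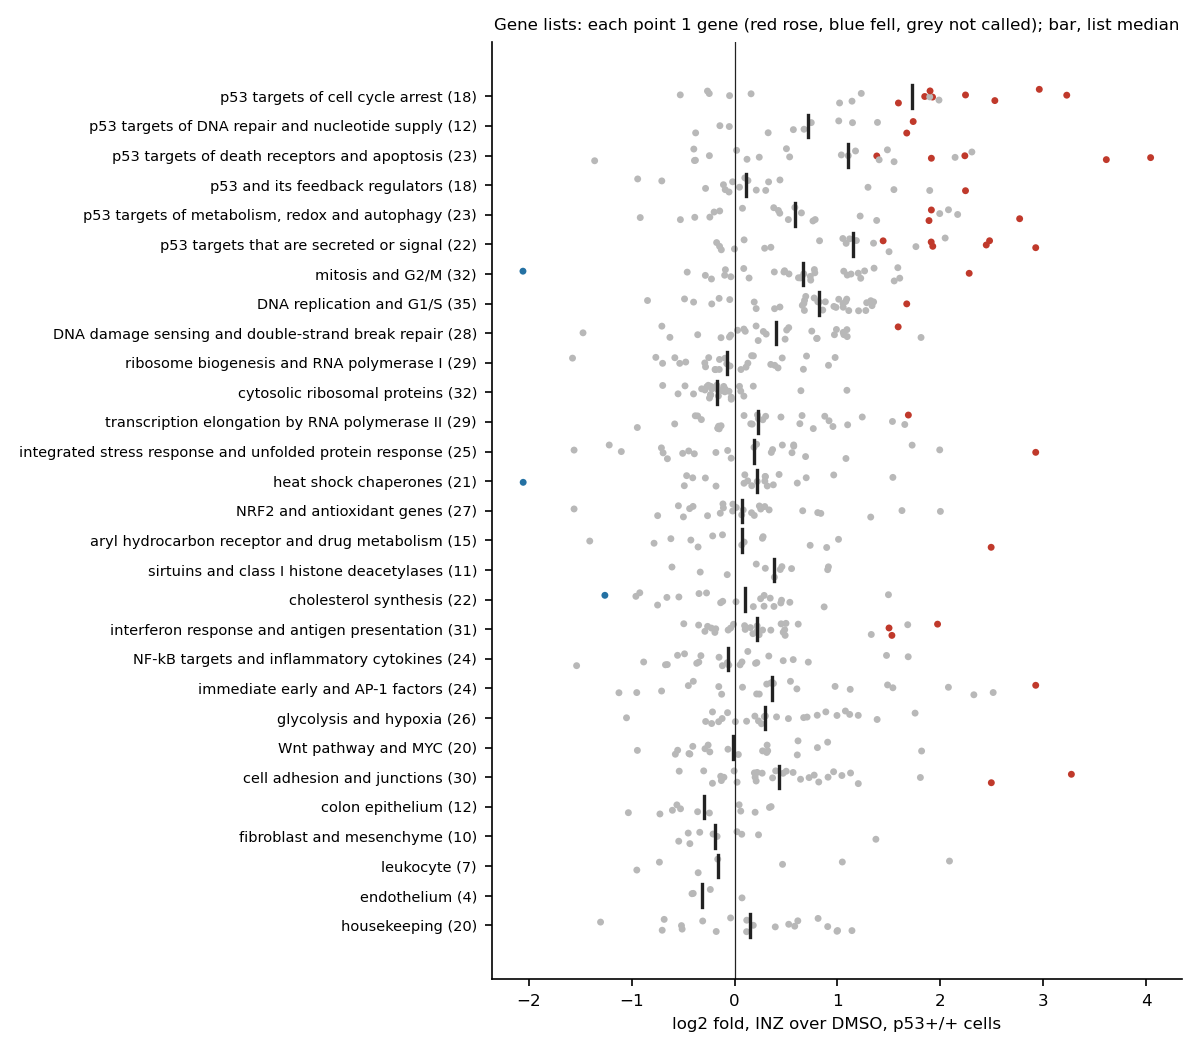
Log2 fold (INZ over DMSO, p53+/+ cells) of the members of 29 gene lists, 1 point per gene, with the number measured in parentheses and a bar at the median of the list; red points rose, blue points fell and grey points did not pass. The medians of the lists of p53 targets lie between 0.59 and 1.72, and those of ribosomal proteins and ribosome biogenesis below 0. Mitosis and G2/M (0.66) and DNA replication and G1/S (0.82) lie within the range of the p53 lists. In p53-/- cells, not shown, the medians of these cell cycle lists were 0.34 and 0.45.

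Where the same treatment was tested in the p53-/- arrays with limma, 68 genes rose and 199 fell (0.396% and 1.16%). The rises of p53+/+ cells were mostly not called there and the falls mostly were. Of the 119 genes that rose, 15 also rose in p53-/- cells (12.6% of these, and 22.1% of the 68), and of the 61 that fell, 43 also fell (70.5% of these, and 21.6% of the 199). The median log2 fold in p53-/- cells was 0.66 for the 119 genes and -1.67 for the 61, close to the -1.58 of the latter in p53+/+ cells. A call in 1 line and not in the other is no test of a difference, so the effects were compared directly in limma.

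Effects of INZ were different in the 2 genotypes in 8 features (0.0178%), all with a more positive effect in p53+/+ cells. They were both features of TP53I3, the feature of ATF3, that of GDF15, 1 of the 2 of CDKN1A and 3 unnamed ones. GDF15 moved in opposite directions: it rose from 12.09 to 12.71 up to 13.65 to 14.19 in p53+/+ cells and fell from 12.92, 13.18 and 12.99 to 11.23, 10.90 and 11.12 in p53-/- cells (log2 fold -1.95, adjusted p = 0.00252), and the difference was 3.39 (95% interval 2.58 to 4.20, adjusted p = 0.00322). For ATF3 the p53-/- arrays were at 9.17, 8.79 and 9.15 with DMSO, above the p53+/+ DMSO arrays, and at 8.55, 8.64 and 8.55 with INZ. The effect of INZ on TNFRSF10C differed by 3.10 (95% interval 2.10 to 4.10), just outside the threshold (adjusted p = 0.0557), and that on GADD45A by 2.42 (adjusted p = 0.07) and on SORCS2 by 2.93 (adjusted p = 0.0911). For BTG2, with a difference of 3.29, the interval was wide (1.74 to 4.83, adjusted p = 0.358). Of the 9 falls kept without each array none was among the 8. The difference was 0.90 (95% interval -0.13 to 1.93) for PWWP3A, 1.21 (0.40 to 2.02) for MAD1L1 and -0.81 (-1.75 to 0.12) for HSPA8. The largest of the 9 was 1.29 (0.51 to 2.07) for SLC38A10. All but TBX19 and HSPA8 had a positive difference, that is a larger fall in p53-/- cells. CYP1A1 rose in both lines (log2 fold 2.49 and 2.61, difference -0.12, 95% interval -1.27 to 1.03).

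**Figure D5:**
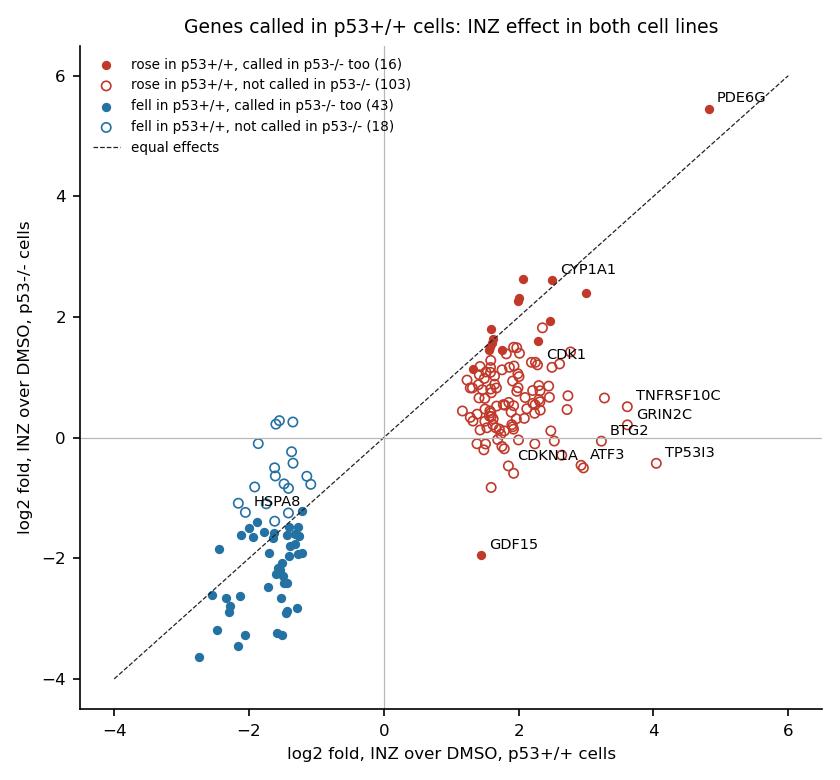
Log2 fold with INZ in p53-/- cells (vertical) against that in p53+/+ cells (horizontal) for the 180 genes called in p53+/+ cells; filled points were also called in p53-/- cells, and the dashed line marks equal effects. PDE6G and CYP1A1 lie near the line, TP53I3, ATF3 and CDKN1A near or below 0 on the vertical axis, and GDF15 far below it.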

How the data were processed

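The authors deposited 1 RMA intensity per feature and array on a linear scale, from 12 one-colour NimbleGen arrays. RMA settings and annotation build: not given in the sources used here. Intensities were put on the log2 scale with no pseudocount and fitted in limma 3.58.1 (R 4.3.3) with 1 mean per group over the 12 arrays. The contrast was the mean of the 3 p53+/+ INZ arrays minus that of the 3 p53+/+ DMSO arrays. p-values were adjusted over 45033 features by Benjamini-Hochberg, and adjusted p under 0.05 is called. The number of arrays limits the precision. Names came from the platform annotation (18188 features) or RefSeq accessions (678), and 26167 features stayed unnamed. The feature with the highest mean stands for a gene. The genes named were the 20 largest rises and falls without overlap, the 4 list members with the smallest p, 10 genes of the study's question and those that differed between genotypes; the others were chosen after their values were seen. Gene lists and alternatives were chosen with earlier results of these data known. The fit was tested on simulated data. A few genes that the rule names are not reported here. Alternatives covered the arrays, weights, trend, scaling, dim features, block and gene summary.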

Additional observations from a re-analysis of the deposited data

Results flagged for a closer look

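In 8 features the 2 genotypes responded differently to INZ in limma, on the log2 scale and as the effect in p53+/+ minus that in p53-/- cells. The differences were 4.47 (95% interval 3.57 to 5.37, adjusted p = 0.000982) for the brighter feature of TP53I3 and 4.37 (adjusted p = 0.000842) for its second feature. They were 3.39 for GDF15 (adjusted p = 0.00322), 3.38 for ATF3 (adjusted p = 0.00321) and 2.44 for the second feature of CDKN1A (adjusted p = 0.0465), which had log2 folds of 1.57 and -0.88 in the 2 lines. The other 3 features have no gene name here. AF218028 differed by 4.19 (4.67 in p53+/+ and 0.49 in p53-/- cells, adjusted p = 0.00328), BC112941 by 3.92 (3.11 and -0.80, adjusted p = 0.00321) and BC008962 by 3.34 (1.43 and -1.92, adjusted p = 0.00832).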

How the results depend on the processing

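With only the 6 p53+/+ arrays in the fit, 9 features rose and 0 fell, for 4 genes and 0 genes (3920 features had an unadjusted p under 0.05). Leaving out 1 array gave 58 (without INZ replicate 1) to 823 (without DMSO replicate 3) features that rose and 23 to 362 that fell, for 30 to 367 and 10 to 141 genes. Leaving out DMSO replicate 1 and INZ replicate 3, chosen after seeing the data, gave 113 and 53 features and 55 and 24 genes. The difference between the genotypes gave 30 features with array weights and 15 with a trend in the prior variance. Without dim features, 2240 features had all INZ arrays below all DMSO arrays. The log2 fold of MDM2 turned to -0.02 without DMSO replicate 3, -0.39 without INZ replicate 3 (highest 0.46, without INZ replicate 1), -0.10 with array weights and -0.18 without both arrays. The log2 fold of SIRT1 lay between -0.13 and 0.38 when 1 array was left out and was -0.090 without both arrays. With the replicate number as a block, 246 features rose and 130 fell, 313 of these 376 shared with the main calls. Whether arrays of the same number were handled together is not given in the sources used here. Deviations of same-numbered p53+/+ arrays correlated at 0.206, -0.12 and 0.332. These values cannot decide it, since they were not set against arrays of different number. Array weights (398 features), trend (385), quantile scaling (359), median centring (378), leaving out dim features (462) and the mean over a gene's features (139 genes up, 68 down) stayed within 1.5 times. Of the 83 called genes named, all kept their sign in the 21 alternatives, and 4 kept their call in each. The cause of these changes was not tested. Of 29 called genes with several features, 5 had features of opposite sign.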

Other observations

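Several genes outside the lists moved with INZ in p53+/+ cells and were chosen here after their values were seen. NR4A1, an orphan nuclear receptor of the immediate early class, was at 9.50, 10.39 and 9.21 with DMSO and 11.93, 11.71 and 12.31 with INZ (log2 fold 2.29, adjusted p = 0.00495 in limma), and it also rose in p53-/- cells (1.6, adjusted p = 0.0198). MICA, a stress ligand of the NKG2D receptor of natural killer cells, had very little spread, at 8.97, 8.96 and 9.02 with DMSO and 10.33, 10.26 and 10.31 with INZ (log2 fold 1.32, adjusted p = 0.0237). The ligands MICB and ULBP2 rose by 1.58 (adjusted p = 0.0137) and 1.28 (adjusted p = 0.0465). The calls of MICA, MICB and ULBP2 ended without any of 5, 2 and 11 of the 12 arrays, and MICA and MICB are close paralogs that can share probes. CDIP1, a p53-linked pro-apoptotic protein, rose by 2.24 (adjusted p = 0.00836), GCH1, the first enzyme of tetrahydrobiopterin synthesis, by 1.67 (adjusted p = 0.0113) and IL17RB, a cytokine receptor, by 1.75 (adjusted p = 0.00746), and these 3 kept their call without each array. AREG, a ligand of the EGF receptor, rose by 1.93 (adjusted p = 0.0113), a call that ended without INZ replicate 1 (0.0512). CIRBP, a cold-inducible RNA-binding protein, had a log2 fold of -1.52 (adjusted p = 0.0319), a call that ended without any of 8 arrays, and one of -3.27 in p53-/- cells.

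The largest folds of all belonged to features with no gene name here. BC106884 was at 5.62, 5.97 and 5.70 with DMSO and 11.54, 11.98 and 11.48 with INZ (log2 fold 5.90, adjusted p = 7.17e-08), and BX537414 at 6.25, 5.49 and 6.15 and 11.72, 12.07 and 11.44 (log2 fold 5.78). In p53-/- cells their log2 folds were 5.87 and 5.88. Of the 388 features called, 185 have no gene name here, 104 of those that rose and 81 of those that fell.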
